A study of Mus musculus with 58 samples.

Results

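The genes described here are 7 transcripts used to recognise regulatory T cells: the transcription factor genes Foxp3, Ikzf2 and Ikzf4, the surface receptor genes Nrp1 and Gpr83, the TGF-beta anchor gene Lrrc32 and the integrin gene Itgae. They were chosen by name, and all 7 were found among the 24028 genes of the deposited count table, whose Entrez gene IDs were matched to RefSeq symbols. All 7 passed the filter on low counts, within the 13709 genes that were tested.

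The table holds 58 RNA-seq libraries of mouse CD4+ T cells in 15 groups, made of 3 genotypes in 5 states. In the TG mice (labelled T1792 tg/tg) a CD4cre transgene acts on a Rosa26 loxSTOPlox CAG-miR-17∼92 allele, so that the microRNA cluster miR-17∼92 is expressed from Rosa26. In the KO mice (labelled T1792 delta/delta) the same CD4cre deletes a lox-flanked miR-17∼92 locus. The WT mice (labelled wt) are wild type and are not described as carrying a Cre, so Cre and the miR-17∼92 change cannot be told apart in a comparison with WT. The lymph nodes and spleens of 10 mice, male and female, were pooled, and a kit was used to take naive CD4+ T cells from them; the age of the mice is not given in the sources used here. Cells were taken naive, or after 24 h or 48 h on plates that carried anti-CD3 and anti-CD28. Anti-CD3 was at 0.25 µg/ml for the very weak and 0.5 µg/ml for the weak stimulus, anti-CD28 was at 0.2 µg/ml in both, and the medium held 50 U/ml of IL-2. There were 4 libraries in every group except KO naive and WT naive, which had 3 (replicates 1, 2 and 4). Nothing in the labels says that the replicates of a group came from separate animals or cultures, so the p-values measure the spread between these libraries, which may be technical.

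Regulatory T cells restrain other T cells, and Foxp3 is the transcription factor that defines them. Helios (Ikzf2) and Eos (Ikzf4) are Ikaros family factors that accompany Foxp3, and neuropilin-1 (Nrp1), GARP (Lrrc32), CD103 (Itgae) and the G protein-coupled receptor Gpr83 are found at high level on these cells. None of the surface genes is restricted to regulatory T cells: activated conventional CD4+ T cells can express several of them, and CD103 is also carried by CD8+ T cells and dendritic cells. In bulk RNA, fewer cells of a type and less RNA per cell cannot be told apart, and that holds for every difference below.

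The microRNAs altered in these mice are shown with their seed, bases 2 to 8, in capitals, because the seed is the part that pairs with target transcripts. The 6 mature sequences come from RefSeq (GRCm38.p6, chromosome 14, plus strand, chr14:115043684-115044496) and fall into 4 seed families, with miR-17 and miR-20a in the first, miR-18a in the second, miR-19a and miR-19b in the third and miR-92a in the fourth.
mmu-miR-17-5p: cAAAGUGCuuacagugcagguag
mmu-miR-20a-5p: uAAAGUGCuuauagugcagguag
mmu-miR-18a-5p: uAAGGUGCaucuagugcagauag
mmu-miR-19a-3p: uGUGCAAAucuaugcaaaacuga
mmu-miR-19b-3p: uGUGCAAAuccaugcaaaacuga
mmu-miR-92a-3p: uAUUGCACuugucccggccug
Annotated 3' UTRs were searched on the transcript strand for the reverse complement of each seed, which is GCACTTT for miR-17 and miR-20a. It is GCACCTT for miR-18a and TTTGCAC for miR-19a and miR-19b, and for miR-92a it is GTGCAAT. Matches were present in Ikzf2 and Ikzf4 and are shown with those genes. The searched 3' UTRs of Foxp3 (2202 bases), Nrp1 (549), Lrrc32 (2175), Itgae (306) and Gpr83 (1990) hold none of these letters, which says nothing about other kinds of site or other transcript ends.

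Each library held 19.2 to 20.8 M exonic counts and 2.74 to 9.11 M intronic counts. The hairpin gene Mir17, which lies in the deleted part, summed to 140 counts in the 16 stimulated TG libraries, 2 counts in the 16 stimulated KO libraries and 57 counts in the 16 stimulated WT libraries. Gt(ROSA)26Sor, the gene of the locus that holds the TG allele, summed to 20 counts in stimulated TG, 1955 counts in stimulated KO and 1618 counts in stimulated WT libraries. Among naive libraries the sum of Mir17 was 542 counts in 4 TG, 3 counts in 3 KO and 10 counts in 3 WT libraries. Markers of other cell types were higher in naive than in stimulated libraries: the summed level of 10 macrophage and monocyte markers had a median of 0.988 CPM (CPM, read counts scaled to library size) in stimulated TG, 1.40 CPM in stimulated KO and 1.002 CPM in stimulated WT libraries, against 209 CPM in naive TG, 198 CPM in naive KO and 231 CPM in naive WT libraries. A list of 8 dendritic cell markers ranged from 63.6 to 182 CPM in stimulated TG, 42.3 to 195 CPM in stimulated KO and 50.4 to 175 CPM in stimulated WT libraries, against 453 to 729 CPM in naive TG, 283 to 579 CPM in naive KO and 398 to 752 CPM in naive WT libraries. Most of this sum was Cd74 and H2-Ab1, so it cannot be read as a level of dendritic cells alone. In naive cells Cd74 had means of 453 CPM in TG, 353 CPM in KO and 409 CPM in WT. H2-Ab1 had 116, 86.0 and 103 CPM, while Xcr1 and Clec9a had 0.428 and 0.426 CPM in naive TG libraries. The sum of Cd8a and Cd8b1, the defining markers of CD8+ T cells, had medians of 12.3 CPM in stimulated TG, 17.0 CPM in stimulated KO and 14.3 CPM in stimulated WT libraries, against 46.1 CPM in naive TG, 50.8 CPM in naive KO and 47.5 CPM in naive WT libraries. On stimulation of WT cells 10 of 10 macrophage and monocyte markers, 7 of 8 dendritic cell markers and 2 of 2 CD8+ T cell markers fell. In that comparison 81.3% of the 13709 tested genes passed the test given below, 5762 of them lower. Fcna was at 0 in every stimulated KO and WT library, and Clec9a in every stimulated TG library. The part of these cells in the changes from naive to stimulated was not tested. In naive cells the ranges of these 3 lists overlapped between the genotypes. On stimulation of WT cells 6 of 6 B cell, 3 of 4 NK cell, 4 of 4 platelet and 5 of 5 endothelial and stromal markers that were tested fell too, against the same 81.3% of all genes. Of 6 T cell genes (among them Cd4 and Cd3e) 6 were lower in stimulated TG than in stimulated WT cells, with a median of -0.31, and 2 were higher in stimulated KO cells, with a median of 0.13. Of all tested genes, 33.8% passed in that TG comparison and 24.4% in that KO comparison. Among markers of other cell types, Cd8a was lower in stimulated TG (-0.71) and KO cells (-0.52) than in WT, Cd8b1 was higher in KO (0.47), and Eomes, an NK cell marker of the list, was lower in KO (-0.94). Pecam1, from the endothelial and stromal list, was lower in TG (-0.65) and higher in KO (0.53). It stood far above another endothelial gene of that list, Cdh5, so its level cannot be read as one of endothelial cells. In naive TG, KO and WT cells the means were 265, 311 and 279 CPM for Pecam1 and 0.560, 1.79 and 1.49 CPM for Cdh5. The B cell marker Cd79b (1.04), the NK cell marker Klrk1 (0.78), the dendritic cell marker Zbtb46 (0.67) and the macrophage marker Mrc1 (2.53, from 41 counts in all TG and 5 in all WT stimulated libraries) were higher in stimulated TG cells than in WT, and the NK cell marker Ncr1 was lower in TG naive cells (-1.15). Cd79b, Klrk1, Zbtb46 and Mrc1 were each the only call of their list in that stimulated comparison. The list medians there were 0.07 for B cell, -0.13 for NK cell, -0.05 for dendritic cell and 0.01 for macrophage and monocyte markers. The part of these genes in the genotype differences below was not tested.

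**Figure D1:**
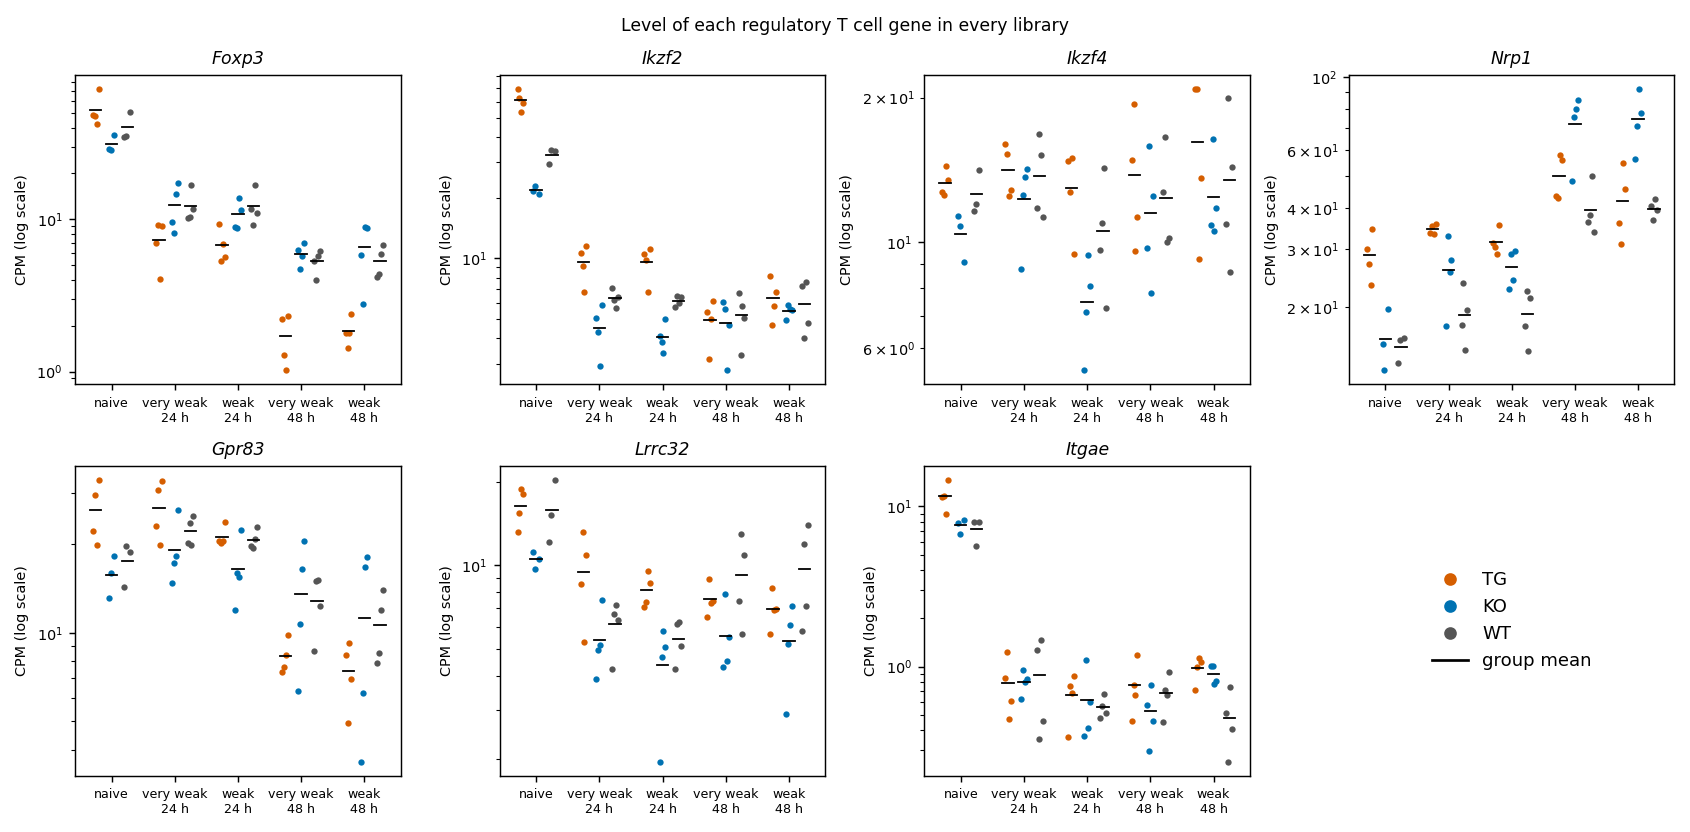
Level of each of the 7 genes in every library, in CPM (log scale), with 1 point per library, bars at the group means, TG in orange, KO in blue and WT in grey. Foxp3, Ikzf2, Lrrc32 and Itgae sit highest in naive cells, and Nrp1 sits highest in KO cells at 48 h.

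Stimulation moved most of the 7 genes, and not in one direction. Foxp3, Ikzf2, Lrrc32 and Itgae fell in all 3 genotypes, Nrp1 rose in all 3, Gpr83 fell in TG cells, and no change of Ikzf4 passed the test in any genotype. A gene was called at an adjusted p under 0.05 by edgeR's quasi-likelihood test with Benjamini-Hochberg adjustment over all 13709 genes. On that rule 6 of 7 members were called in TG cells (1 higher and 5 lower in stimulated cells), where 83.3% of all genes were called. In KO cells 5 of 7 were called (1 higher, 4 lower), against 78.9% of all genes, and in WT cells 5 of 7 (1 higher, 4 lower), against 81.3%. The share of members called is thus near the share of all genes. The median log2 change over the 7 members was -1.04 in TG, -1.03 in KO and -1.10 in WT cells, beside a median over all tested genes of -0.05, -0.03 and -0.04 in the same genotypes.

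Between 24 h and 48 h, 4 of 7 members were called in TG cells (1 higher and 3 lower at 48 h), where 53% of all genes were called. In KO cells 3 of 7 were called (1 higher, 2 lower), against 55.1% of all genes, and in WT cells 4 of 7 (2 higher, 2 lower), against 54.6%. The anti-CD3 dose made no difference that could be called: edgeR's test called 0 of 7 members and 0% of all genes between the weak and the very weak stimulus in TG cells, and the same 0 members and 0% in KO and 0 members and 0% in WT cells. At an unadjusted p under 0.05 edgeR listed 639 genes and 0 members in TG, 1183 genes and 0 members in KO, and 563 genes and 1 member, Itgae (-0.58), in WT cells. DESeq2 called 0 genes in each genotype.

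Between the genotypes, TG cells differed from WT cells mainly by less Foxp3 after stimulation and by more Nrp1 and Ikzf2 before it and more Nrp1 at 24 h. KO cells differed mainly by more Nrp1 at 48 h. Less Lrrc32 and slightly less Ikzf2 were also called in KO over the stimulated states. Both calls treat the states of a replicate number as separate samples. They were lost over sums of the states (adjusted p = 0.158 for Lrrc32 and 0.237 for Ikzf2, edgeR). With the replicate number as a block there, Lrrc32 was called and Ikzf2 was not. In naive cells 2 of 7 members were called between TG and WT, both higher in TG, where 7.83% of all genes were called. Between KO and WT naive cells 0 of 7 members and 0.0365% of all genes were called. At an unadjusted p under 0.05 edgeR listed 1 member there, Ikzf2, and 651 genes, and DESeq2 called 0 members and 10 genes. Between TG and KO naive cells 2 of 7 were called, both higher in TG, against 13.3% of all genes.

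At 24 h, 1 of 7 members was called between TG and WT under the very weak stimulus, where 3.73% of all genes were called, and 1 of 7 under the weak stimulus, against 4.81%. At 48 h, 1 of 7 was called under the very weak stimulus, against 13.3% of all genes, and 1 of 7 under the weak stimulus, against 9.96%. For KO against WT at 24 h, 0 of 7 were called under the very weak stimulus, where 1.06% of all genes were called, and 0 of 7 under the weak stimulus, against 1.4%. At an unadjusted p under 0.05 edgeR listed 2 members, Ikzf2 and Nrp1, in each of these 24 h states. It listed 1485 genes there under the very weak and 1757 under the weak stimulus. DESeq2 called 0 members in each, and 247 and 319 genes. At 48 h, 1 of 7 was called between KO and WT under the very weak stimulus, against 4.63%, and 1 of 7 under the weak stimulus, against 5.04%.

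Averaged over the 4 stimulated states, 3 of 7 members were called between TG and WT (2 higher and 1 lower in TG), where 33.8% of all genes were called. Between KO and WT 3 of 7 were called (1 higher and 2 lower in KO), against 24.4%, and between TG and KO 4 of 7 (3 higher and 1 lower in TG), against 58%. The difference of TG from WT changed between naive and stimulated cells for 1 of 7 members, against 6.18% of all genes, and between 48 h and 24 h for 1 of 7, against 1.85%. For KO the corresponding counts were 0 of 7, against 0.168%, and 0 of 7, against 0.781%. At an unadjusted p under 0.05 edgeR listed 1 member, Nrp1, in each of these KO tests, beside 1406 genes for stimulation and 1389 for time. DESeq2 called 0 members in each, and 73 and 189 genes. TG and KO are compared with the same WT libraries, so their differences from WT are not independent of each other.

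**Figure D2:**
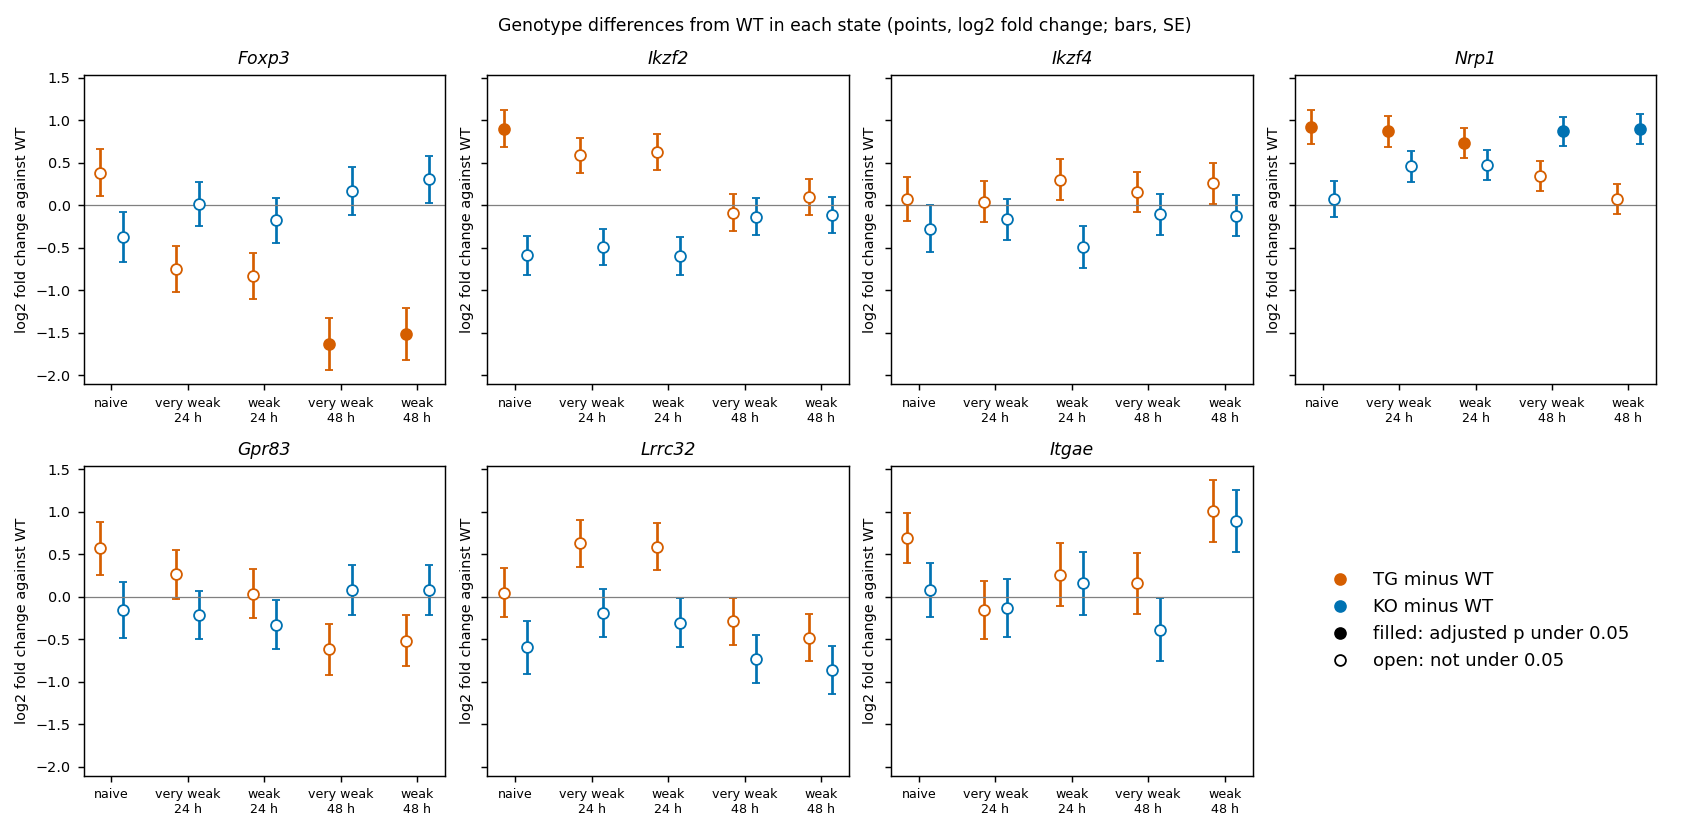
Log2 fold change of TG (orange) and KO (blue) against WT in each of the 5 states, with bars of 1 SE from edgeR; filled points passed an adjusted p of 0.05. Foxp3 is lowest in TG at 48 h, and Nrp1 is above WT in TG naive and 24 h cells and in KO 48 h cells.

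Foxp3 (Entrez 20371, chrX:7579676-7595243, mm10) had 48.2, 48.0, 42.0 and 72.2 CPM in the TG naive libraries, 28.9, 28.6 and 35.8 CPM in KO naive and 34.8, 35.2 and 50.8 CPM in WT naive libraries. The TG and the KO naive libraries did not overlap, and each overlapped WT. The difference of TG from WT naive cells was 0.39 on the log2 scale (SE 0.277) with an adjusted p of 0.450 by edgeR's quasi-likelihood test. TG exceeded KO by 0.76 in naive cells, with an adjusted p of 0.0634 without the replicate block and 0.0226 by edgeR's quasi-likelihood test with the replicate number as a block, where the difference was 0.72. It also passed when the libraries numbered 3 were left out (0.85, adjusted p = 0.0327).

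After 24 h under the very weak stimulus Foxp3 had 7.03, 9.12, 4.04 and 9.04 CPM in TG libraries, 9.67, 8.14, 14.6 and 17.4 CPM in KO and 10.3, 10.4, 16.9 and 11.7 CPM in WT libraries. Under the weak stimulus it had 9.29, 5.35, 6.88 and 5.67 CPM in TG, 8.93, 8.79, 13.8 and 11.5 CPM in KO and 11.6, 9.15, 16.9 and 10.9 CPM in WT libraries. TG and WT libraries did not overlap under the very weak stimulus, and 1 TG library passed the lowest WT library under the weak one. The difference of TG from WT was -0.75 (SE 0.270, adjusted p = 0.118, edgeR's quasi-likelihood test) under the very weak and -0.84 (SE 0.271, adjusted p = 0.0614) under the weak stimulus. With the replicate number as a block both were called, at -0.72 (adjusted p = 0.0401, edgeR) and -0.82 (adjusted p = 0.0159). The very weak difference was -0.36 (adjusted p = 0.696, edgeR) without the libraries numbered 3. The weak-stimulus difference was also called without TG replicate 1 (-1.02, adjusted p = 0.0485) and by DESeq2 (-0.83, adjusted p = 0.0418).

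At 48 h Foxp3 was lower still in TG cells, with 2.20, 1.29, 1.02 and 2.31 CPM under the very weak and 1.79, 1.42, 1.80 and 2.38 CPM under the weak stimulus. The KO libraries held 6.32, 4.68, 5.76 and 7.03 CPM under the very weak and 5.82, 2.77, 8.88 and 8.79 CPM under the weak stimulus. The WT libraries held 5.29, 3.97, 5.71 and 6.20 CPM under the very weak and 4.15, 4.34, 5.90 and 6.82 CPM under the weak stimulus. Every TG library lay below every KO and WT library of its state, and KO and WT overlapped. The TG libraries rest on 20 to 47 counts each. Against WT the TG level was 0.323-fold under the very weak stimulus (log2 -1.63, SE 0.310, adjusted p = 0.000215, edgeR's quasi-likelihood test) and 0.349-fold under the weak stimulus (log2 -1.52, SE 0.307, adjusted p = 0.000533).

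Over the 4 stimulated states Foxp3 fell by 1.18 on the log2 scale in TG against WT (95% interval -1.48 to -0.89, adjusted p = 6.77e-09, edgeR) and was lower in TG in 16 of 16 libraries paired by state and replicate number. TG was also below KO, at -1.26 (adjusted p = 2.02e-10), in 14 of 16 pairs. The pairs are 4 replicate numbers seen in 4 states, so they are not 16 separate samples, and these tests treat the states as separate. With counts summed over the states of each number, Foxp3 held 3.41 to 5.07 CPM in TG, 6.09 to 11.2 CPM in KO and 6.99 to 11.4 CPM in WT. Both TG differences were still called over these sums by edgeR's test. KO differed from WT by 0.08 (95% interval -0.19 to 0.35, adjusted p = 0.726). The TG effect on Foxp3 in stimulated cells was lower than that in naive cells by 1.57 on the log2 scale (SE 0.318, adjusted p = 0.00116 for the interaction, edgeR), where TG naive cells were at 0.39 against WT. The naive value was 0.20 without TG naive replicate 4 and 0.59 without WT naive replicate 4. Among the libraries numbered 3 and 4 alone, which leave 1 WT naive library, the change was -1.60 with an adjusted p of 0.0824 by edgeR, on the assumption that this library varies like the other groups. The drop on stimulation was 3.89 in TG (0.0674-fold), 1.87 in KO (0.274-fold) and 2.32 in WT cells (0.200-fold), each past the test, and no stimulated library of a genotype reached its naive libraries.

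From 24 h to 48 h Foxp3 fell further, to a mean of 1.78 CPM at 48 h against 7.05 CPM at 24 h in TG, 6.25 against 11.6 CPM in KO and 5.30 against 12.2 CPM in WT cells. The log2 changes were -1.99 in TG (adjusted p = 1.11e-10, edgeR), -0.89 in KO (adjusted p = 0.000112) and -1.21 in WT (adjusted p = 9.78e-07). TG and WT libraries did not overlap between the times, and KO libraries did. The further drop in TG relative to WT, -0.78 (SE 0.289), had an adjusted p of 0.180 for the interaction by edgeR's test.

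Ikzf2, the gene for Helios (Entrez 22779, chr1:69531207-69687351), had 69.6, 62.4, 53.1 and 59.1 CPM in TG naive libraries, 21.5, 22.9 and 20.8 CPM in KO naive and 29.6, 34.5 and 34.1 CPM in WT naive libraries. The 3 genotypes did not overlap, with TG highest and KO lowest. TG was 1.87-fold WT (log2 0.90, SE 0.217, adjusted p = 0.00535, edgeR's quasi-likelihood test), and the call was lost without the libraries numbered 1 (0.77, adjusted p = 0.113) or 4 (0.96, adjusted p = 0.0761). TG was 2.81-fold KO (log2 1.49, adjusted p = 2.23e-06). KO was below WT by 0.59 (95% interval -1.05 to -0.13) with an adjusted p of 0.906.

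Stimulated cells held much less Ikzf2: TG libraries ranged from 3.14 to 11.6 CPM with a median of 6.83, KO from 2.78 to 6.05 CPM with a median of 4.95 and WT from 3.30 to 7.65 CPM with a median of 6.13. The drop from naive cells was 3.06 in TG (0.120-fold), 2.21 in KO (0.216-fold) and 2.47 in WT cells (0.181-fold) on the log2 scale, each past edgeR's test. No stimulated library of any genotype reached its naive libraries. The drop was larger in TG than in WT by 0.59 (SE 0.239, adjusted p = 0.135 for the interaction, edgeR).

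At 24 h the group means of Ikzf2 kept the order of the naive cells. Under the very weak stimulus it had 10.7, 9.12, 6.82 and 11.6 CPM in TG, 5.04, 4.30, 2.91 and 5.85 CPM in KO and 7.09, 6.24, 5.69 and 6.42 CPM in WT libraries. TG and KO each overlapped WT there, and neither the TG difference (0.59, adjusted p = 0.117, edgeR) nor the KO difference from WT (-0.49, adjusted p = 0.367) passed the test. Under the weak stimulus it had 10.5, 9.79, 6.82 and 11.1 CPM in TG, 4.12, 3.82, 3.37 and 4.98 CPM in KO and 5.75, 6.50, 6.02 and 6.39 CPM in WT libraries, with no overlap between the genotypes. The difference of TG from WT there was 0.63 (adjusted p = 0.0726, edgeR's quasi-likelihood test), 0.61 with the replicate number as a block (adjusted p = 0.0333), and past the test without the libraries numbered 3 (0.75, adjusted p = 0.0400) or without TG replicate 3 alone (0.76, adjusted p = 0.0333), and by DESeq2 (0.64, adjusted p = 0.0388). At 48 h the 3 genotypes overlapped under both stimuli, with group means of 4.93 and 6.37 CPM in TG, 4.78 and 5.47 CPM in KO and 5.24 and 5.94 CPM in WT cells under the very weak and the weak stimulus. Between 24 h and 48 h Ikzf2 fell by 0.77 in TG cells (adjusted p = 2.50e-05, edgeR), while the changes in KO (0.25) and WT cells (-0.17) did not pass the test. The KO change passed without KO replicate 3 of the very weak 48 h state (0.35, adjusted p = 0.0465, edgeR) and was 0.14 without the libraries numbered 2 (adjusted p = 0.524).

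Averaged over the stimulated states Ikzf2 was 1.24-fold WT in TG (log2 0.31, SE 0.106, adjusted p = 0.0211, edgeR) and 0.793-fold WT in KO (log2 -0.33, SE 0.108, adjusted p = 0.0193). TG was higher than WT in 12 of 16 pairs and KO was higher in 3 of 16. Both calls rest on treating the 4 states as separate samples: with counts summed over the states of each replicate number, 4 against 4, TG was 0.36 (adjusted p = 0.140) and KO was -0.32 (adjusted p = 0.237), and with the replicate number as a block too TG was 0.34 (adjusted p = 0.0591) and KO was -0.33 (adjusted p = 0.0871, edgeR). The TG call was also lost without the libraries numbered 1 (0.31, adjusted p = 0.0731), 2 (0.30, adjusted p = 0.0651) or 4 (0.20, adjusted p = 0.272). The KO call was lost without those numbered 1 (-0.30, adjusted p = 0.106, edgeR) or 3 (-0.19, adjusted p = 0.202). The difference between TG and KO, 0.64 (adjusted p = 1.44e-06), was called under every setting tried.

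The Ikzf2 3' UTR (7554 bases) held 5 seed matches, shown here with the match in capitals since Ikzf2 and Ikzf4 are the members with any, as 26-base windows on the transcript strand (minus strand of GRCm38).
miR-17/20a match at chr1:69537383-69537408: ggagaaggtcccGCACTTTaaaaata
miR-17/20a match at chr1:69536968-69536993: aaccatgtcactGCACTTTgccttgg
miR-18a match at chr1:69533660-69533685: tacaggtcatgtGCACCTTaagtgca
miR-19 match at chr1:69537288-69537313: gtcgtctcttaaTTTGCACgtgagaa
miR-92a match at chr1:69532665-69532690: ttttccataaaaGTGCAATacccctc
Among 20972 annotated mouse 3' UTRs, 11.7% hold the miR-17/20a match, 7.8% the miR-18a match, 11.4% the miR-19 match and 6.56% the miR-92a match. Among the 357 of like length to that of Ikzf2 the shares are 46.8%, 32.8%, 40.3% and 28.6%. The 3' UTR of Ikzf4 (3205 bases) held 1 match to miR-17/20a and 1 to miR-92a, which 25.4% and 14.5% of the 2273 3' UTRs of like length also hold. A match is a description of the letters and was not tested as a site.
miR-17/20a match at chr10:128631634-128631659: cagcccaccactGCACTTTaaccagg
miR-92a match at chr10:128631129-128631154: acacagaagcaaGTGCAATaccacct

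Ikzf4, the gene for Eos (Entrez 22781, chr10:128630839-128669671), kept a similar level with stimulation. It ranged from 9.21 to 20.9 CPM in the 16 stimulated TG libraries, 5.39 to 16.4 CPM in stimulated KO and 7.27 to 19.98 CPM in stimulated WT libraries, against 12.5 to 14.4 CPM in TG naive, 9.07 to 11.3 CPM in KO naive and 11.6 to 14.1 CPM in WT naive libraries. The log2 changes on stimulation were 0.10 in TG (95% interval -0.28 to 0.48), 0.04 in KO (-0.39 to 0.48) and -0.01 in WT (-0.44 to 0.42), and none passed edgeR's test. Averaged over the stimulated states TG exceeded KO by 0.41 (adjusted p = 0.00325, edgeR). That call was lost over sums of the 4 states (0.38, adjusted p = 0.102) but not with the replicate number as a block there (0.37, adjusted p = 0.0349), and it was lost without the libraries numbered 1 (0.25, adjusted p = 0.171) and among the libraries numbered 3 and 4 (0.11, adjusted p = 0.583). Neither genotype differed from WT by a margin that passed the test.

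Nrp1, the gene for neuropilin-1, a co-receptor for semaphorins and VEGF (Entrez 18186, chr8:128358591-128505476), had 30.0, 27.0, 23.3 and 34.6 CPM in TG naive libraries, 15.4, 12.8 and 19.6 CPM in KO naive and 13.5, 15.8 and 16.1 CPM in WT naive libraries. Every TG library lay above every KO and WT library, and KO and WT overlapped. TG was 1.90-fold WT (log2 0.92, SE 0.197, adjusted p = 0.00155, edgeR's quasi-likelihood test), not called without the libraries numbered 4 (0.88, adjusted p = 0.0712), and 1.80-fold KO (log2 0.85, adjusted p = 0.00184). KO differed from WT by 0.07 (95% interval -0.35 to 0.50).

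At 24 h under the very weak stimulus Nrp1 had 33.6, 35.3, 33.3 and 35.8 CPM in TG, 17.5, 32.8, 25.6 and 27.8 CPM in KO and 17.6, 23.6, 14.7 and 19.6 CPM in WT libraries. Under the weak stimulus it had 31.3, 30.3, 28.9 and 35.5 CPM in TG, 22.7, 29.0, 24.1 and 29.6 CPM in KO and 17.5, 22.4, 14.7 and 21.2 CPM in WT libraries. TG libraries lay above all WT libraries in both states. TG exceeded WT by 0.87 under the very weak stimulus (1.83-fold, adjusted p = 0.00165, edgeR) and by 0.73 under the weak stimulus (1.66-fold, adjusted p = 0.00867). The weak-stimulus call was lost without the libraries numbered 1 (0.70, adjusted p = 0.05004) or 4 (0.74, adjusted p = 0.0764), or without WT replicate 3 alone (0.63, adjusted p = 0.0591). The KO differences, 0.46 and 0.48, had adjusted p of 0.272 and 0.204.

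At 48 h the order changed, and Nrp1 was highest in KO cells. Under the very weak stimulus it had 43.4, 43.0, 57.9 and 56.1 CPM in TG, 48.4, 75.5, 79.9 and 84.8 CPM in KO and 36.2, 38.1, 49.9 and 33.8 CPM in WT libraries. Under the weak stimulus it had 35.9, 31.0, 54.8 and 45.7 CPM in TG, 56.2, 70.9, 92.2 and 77.9 CPM in KO and 40.6, 36.8, 42.5 and 39.3 CPM in WT libraries. KO libraries lay above all WT libraries under the weak stimulus, and KO replicate 1 fell within WT under the very weak one. KO exceeded WT by 0.87 (1.83-fold, adjusted p = 0.00127, edgeR) and by 0.90 (1.87-fold, adjusted p = 0.000793) under the very weak and the weak stimulus. The very weak call was lost without the libraries numbered 4 (0.70, adjusted p = 0.108). Within the libraries numbered 1 and 2 alone the values were 0.72 (adjusted p = 0.0904) and 0.70 (adjusted p = 0.107). TG exceeded WT by 0.34 (adjusted p = 0.197) under the very weak and by 0.07 (adjusted p = 0.857) under the weak stimulus.

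As a mean over the stimulated states Nrp1 rose in both, to 1.42-fold WT in TG (log2 0.50, adjusted p = 1.10e-05, edgeR, higher in 14 of 16 pairs) and to 1.60-fold WT in KO (log2 0.68, adjusted p = 6.60e-08, higher in 15 of 16 pairs). These tests and pairs treat the 4 states of a replicate number as separate samples. Over sums of the states of each number, Nrp1 held 35.1 to 43.9 CPM in TG, 36.1 to 56.2 CPM in KO and 28.0 to 30.6 CPM in WT. Both differences from WT were still called there by edgeR's test. Nrp1 in TG against KO was -0.17 (adjusted p = 0.0890, edgeR over the separate states). This difference between TG and KO was called without the libraries numbered 1 (-0.24, adjusted p = 0.0295), without KO replicate 1 of either 48 h state or of the very weak 24 h state, or without TG replicate 3 of the weak 48 h state (adjusted p = 0.0313 to 0.0472). Without the libraries numbered 2 it was -0.09 (adjusted p = 0.495, edgeR), and it was -0.34 over sums of the 4 states (adjusted p = 0.0461, or -0.33 with an adjusted p of 0.0141 with the replicate block). The rise on stimulation was 1.35-fold in TG (log2 0.44, adjusted p = 0.00493, edgeR, lost without the libraries numbered 3 at 0.30 with an adjusted p of 0.0646), 2.74-fold in KO (log2 1.46, adjusted p = 2.74e-10) and 1.81-fold in WT cells (log2 0.85, adjusted p = 1.27e-05). Between 24 h and 48 h it rose by 0.47 in TG, 1.49 in KO and 1.07 in WT cells on the log2 scale, each past the test. The difference between TG and WT was smaller at 48 h than at 24 h by 0.59, with an adjusted p of 0.0635 by edgeR's test, of 0.0203 with the replicate number as a block (-0.60) and of 0.0314 by DESeq2 (-0.59). It passed in 4 of 36 settings that left out 1 library or number, and its highest adjusted p, 0.341, was without the libraries numbered 1 (-0.51).

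Gpr83, a G protein-coupled receptor gene (Entrez 14608, chr9:14859880-14870789), had 22.1, 29.4, 19.9 and 33.1 CPM in TG naive libraries, 13.1, 16.0 and 18.3 CPM in KO naive and 14.3, 19.7 and 18.9 CPM in WT naive libraries. TG libraries lay above all KO and WT libraries, by 0.73 over KO (adjusted p = 0.127, or 0.70 with an adjusted p of 0.0455 with the replicate number as a block, edgeR) and 0.57 over WT (adjusted p = 0.290). At 24 h the group means were 26.6 and 21.2 CPM in TG, 19.1 and 16.5 CPM in KO and 22.2 and 20.7 CPM in WT cells under the very weak and the weak stimulus. At 48 h they were 8.32 and 7.39 CPM in TG, 13.5 and 11.2 CPM in KO and 12.8 and 10.6 CPM in WT cells. Gpr83 thus fell between 24 h and 48 h in all genotypes, by 1.60 in TG (adjusted p = 1.44e-08, edgeR), 0.52 in KO (adjusted p = 0.0280) and 0.88 in WT cells (adjusted p = 0.000346). TG and WT libraries did not overlap between the times. The KO call was lost in 8 of 20 settings that left out 1 library or 1 replicate number, with the highest adjusted p, 0.181, without the libraries numbered 2. On stimulation it fell by 0.94 in TG cells (0.523-fold, adjusted p = 0.000103), and the values were -0.10 in KO (95% interval -0.61 to 0.42) and -0.16 in WT (-0.67 to 0.35).

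The KO libraries split by replicate number for Gpr83 at 48 h. Those numbered 1, 2, 3 and 4 had 6.37, 10.8, 16.6 and 20.5 CPM under the very weak and 3.65, 6.24, 16.8 and 18.2 CPM under the weak stimulus. The TG libraries had 7.37, 7.68, 8.40 and 9.84 CPM and 8.39, 4.94, 9.26 and 6.98 CPM, and the WT libraries had 8.71, 15.05, 15.1 and 12.4 CPM and 7.89, 8.53, 12.003 and 14.0 CPM under the same stimuli. The libraries numbered 1 and 2 stood apart from those numbered 3 and 4 over all genes as well: the leading component of the 24 libraries at 48 h, after group means were removed, took 36.9% of the variance and separated the numbers in all 6 groups. The labels give no batch for these numbers. Within the libraries numbered 1 and 2 the difference of KO from WT over the stimulated states was -0.54 (adjusted p = 0.0173, edgeR), and within those numbered 3 and 4 it was 0.15 (adjusted p = 0.467), against -0.10 (adjusted p = 0.679) over all. TG against KO was 0.40 (adjusted p = 0.0303) within 1 and 2 and -0.41 (adjusted p = 0.0148) within 3 and 4, against -0.11 (adjusted p = 0.522) over all.

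**Figure D3:**
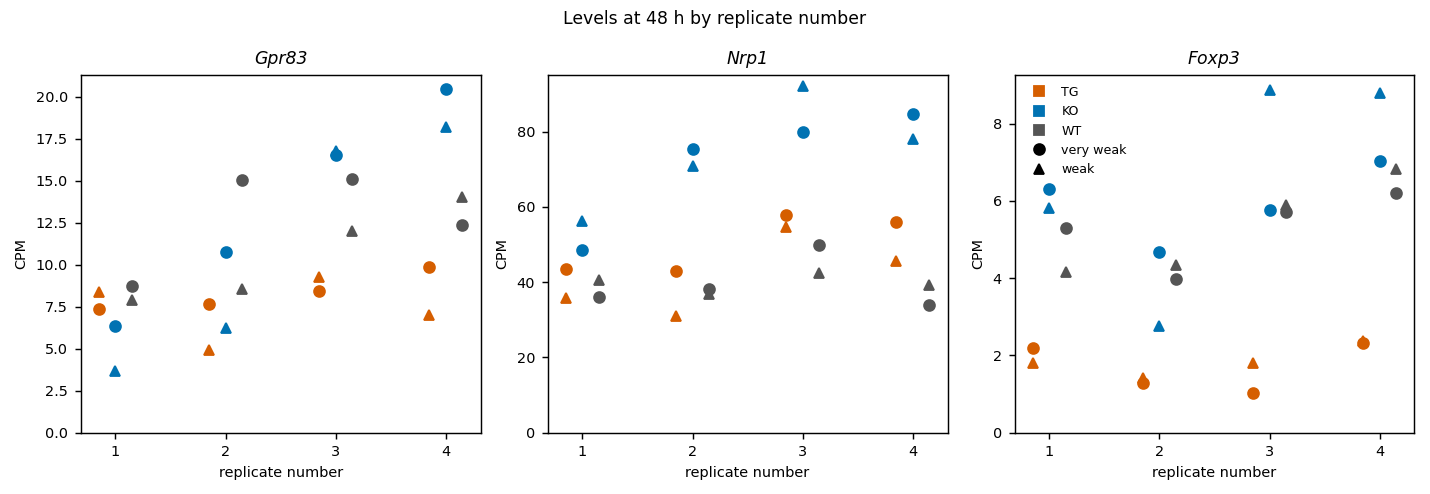
Levels (CPM) of Gpr83, Nrp1 and Foxp3 at 48 h by replicate number, with circles for the very weak and triangles for the weak stimulus, TG in orange, KO in blue and WT in grey. KO libraries numbered 1 and 2 hold 3.65 to 10.8 CPM of Gpr83, below the 16.6 to 20.5 CPM of those numbered 3 and 4, and TG libraries hold the least Foxp3 at every number.

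Lrrc32, the gene for GARP, which holds latent TGF-beta at the cell surface (Entrez 434215, chr7:98489305-98501831), had 13.2, 15.4, 18.8 and 18.0 CPM in TG naive libraries, 11.2, 9.72 and 10.6 CPM in KO naive and 12.1, 15.1 and 20.3 CPM in WT naive libraries. KO libraries lay below all TG and WT libraries, and KO against WT (-0.60, adjusted p = 0.996) did not pass edgeR's test. On stimulation it fell by 1.04 in TG (0.487-fold), 1.03 in KO (0.490-fold) and 1.10 in WT cells (0.466-fold), each past the test. At 48 h it had 6.50, 8.92, 7.28 and 7.43 CPM in TG, 4.28, 7.87, 4.53 and 5.51 CPM in KO and 7.45, 12.9, 5.66 and 10.9 CPM in WT libraries under the very weak stimulus. Under the weak stimulus the values were 5.63, 8.30, 6.90 and 6.93 CPM in TG, 2.91, 5.18, 6.06 and 7.15 CPM in KO and 5.79, 11.9, 7.15 and 14.0 CPM in WT libraries. KO lay below WT at every replicate number in both states, although the groups overlapped. The difference of KO from WT was -0.73 (adjusted p = 0.124, edgeR) and -0.86 (adjusted p = 0.0582) under the very weak and the weak stimulus. With the replicate number as a block both were called, at -0.73 (adjusted p = 0.0310) and -0.85 (adjusted p = 0.0100). The weak-stimulus difference was also called without KO replicate 4 (-1.03, adjusted p = 0.0437) or WT replicate 1 (-1.05, adjusted p = 0.0209), and by DESeq2 (-0.86, adjusted p = 0.0375).

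Averaged over the stimulated states Lrrc32 was 0.696-fold WT in KO (log2 -0.52, SE 0.141, adjusted p = 0.00458, edgeR), lower in 15 of 16 pairs, while TG against WT was 0.11 (adjusted p = 0.583) and TG exceeded KO by 0.63 (adjusted p = 0.000133). The KO call was lost over sums of the 4 states (-0.56, adjusted p = 0.158) but not with the replicate number as a block there (-0.56, adjusted p = 0.00949), and it was lost without the libraries numbered 2 (-0.46, adjusted p = 0.0643) and among those numbered 3 and 4 (-0.39, adjusted p = 0.112). Lrrc32 rose between 24 h and 48 h in WT cells by 0.71 (adjusted p = 0.00196, edgeR, or 0.56 with an adjusted p of 0.0575 without the libraries numbered 4), where the means were 9.47 CPM at 48 h against 5.77 CPM at 24 h. The means were 7.24 against 8.81 CPM in TG and 5.44 against 4.87 CPM in KO cells, and neither change passed the test. The TG difference from WT was lower at 48 h than at 24 h by 0.996 on the log2 scale (SE 0.277, adjusted p = 0.0444 for the interaction, edgeR). That call was lost in 21 of 36 settings that left out 1 library or 1 replicate number, with adjusted p of 0.105, 0.438 and 0.413 without the libraries numbered 1, 2 and 4, and with no filter on low counts (-0.99, adjusted p = 0.0556).

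Itgae, the gene for the CD103 integrin chain, which pairs with integrin beta 7 and binds E-cadherin (Entrez 16407, chr11:73090505-73147449), had 11.5, 11.6, 8.95 and 14.6 CPM in TG naive libraries, 7.83, 6.75 and 8.27 CPM in KO naive and 8.01, 5.66 and 8.01 CPM in WT naive libraries. TG libraries lay above all KO and WT libraries, at 0.69 over WT (adjusted p = 0.156, edgeR) and 0.61 over KO (adjusted p = 0.188). In stimulated cells it ranged from 0.361 to 1.24 CPM in TG, 0.299 to 1.11 CPM in KO and 0.255 to 1.46 CPM in WT libraries, and every stimulated library lay below every naive one. The drop was 3.86 in TG (0.0687-fold), 3.44 in KO (0.0924-fold) and 3.49 in WT cells (0.0889-fold), each past the test. Markers of CD8+ T cells and dendritic cells, which can carry CD103, also fell, as given above. At these levels no difference between the genotypes or times passed edgeR's test over all libraries. Under the weak stimulus at 48 h, where Itgae had 0.716, 0.998, 1.13 and 1.06 CPM in TG, 1.01, 1.01, 0.776 and 0.817 CPM in KO and 0.512, 0.255, 0.750 and 0.407 CPM in WT libraries, the difference of TG from WT was 1.01 (adjusted p = 0.0674) and passed without WT replicate 3 (1.31, adjusted p = 0.0319). It was 0.80 (adjusted p = 0.298, edgeR) without the libraries numbered 2. Over the stimulated states TG against WT was 0.32 (adjusted p = 0.175, edgeR), and it was 0.54 (adjusted p = 0.0453) without the libraries numbered 3 and 0.10 (adjusted p = 0.749) without those numbered 2.

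The 7 genes were not equally abundant. Per kilobase of exon, the mean level in WT naive cells was 10.3 CPM per kb for Foxp3, 7.83 for Gpr83, 4.16 for Lrrc32, 2.93 for Ikzf2, 2.90 for Ikzf4, 1.58 for Itgae and 1.504 for Nrp1. In TG naive cells the means were 13.4 for Foxp3, 11.6 for Gpr83, 5.47 for Ikzf2, 4.29 for Lrrc32, 3.06 for Ikzf4, 2.85 for Nrp1 and 2.55 for Itgae, on the same scale. In stimulated WT cells Gpr83 led with 7.37 CPM per kb, ahead of Nrp1 (2.91), Ikzf4 (2.89), Foxp3 (2.23), Lrrc32 (1.997), Ikzf2 (0.531) and Itgae (0.143). Ranked over the 15 groups by CPM, Foxp3, Ikzf2, Lrrc32 and Itgae had their 3 highest group means in the naive groups, with TG naive highest. Neighbouring groups in these orders mostly overlapped: the gaps without overlap were 2 of 14 for Foxp3, 3 of 14 for Ikzf2, 1 of 14 for Lrrc32, 2 of 14 for Itgae, 0 of 14 for Ikzf4, 0 of 14 for Nrp1 and 0 of 14 for Gpr83.

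The intronic counts, which come mostly from unspliced RNA, gave a separate reading of the same libraries. Their changes are relative to the intronic total of each library. That total was 5.82 to 9.11 M in naive and 2.74 to 4.39 M in stimulated libraries, while the exonic totals stayed alike. A gene's intronic and exonic changes on stimulation are therefore not on a common scale. On stimulation Foxp3 and Ikzf2 fell and Nrp1 rose relative to the intronic total, in all genotypes (for Nrp1 in WT cells 0.56, adjusted p = 0.0315, edgeR, and 0.51, adjusted p = 0.0622, with no filter on low counts). In WT cells the mean intronic level of Nrp1 was 10.4 CPM in naive cells. It was lower at 24 h (8.01 and 9.16 CPM under the very weak and the weak stimulus) and higher at 48 h (19.4 and 17.9 CPM). Ikzf4 rose in the introns, relative to the same total, by 1.83 in TG, 1.66 in KO and 2.08 in WT cells on the log2 scale, beside exonic changes of 0.10, 0.04 and -0.01. By edgeR's test on 12366 genes, 7 of 7 members were called in TG cells (2 higher, 5 lower), where 73.2% of all genes were called, 5 of 7 in KO cells (2 higher, 3 lower), against 66.2%, and 6 of 7 in WT cells (2 higher, 4 lower), against 65.8%. The intronic drop of Itgae was 1.40 in TG, 1.70 in KO and 1.32 in WT cells, smaller in value than the exonic drop above; the difference between introns and exons was not tested. The change of the Lrrc32 introns in KO cells on stimulation, -0.72 (adjusted p = 0.0504, edgeR), was called with the replicate block (-0.89, adjusted p = 0.00123) and with no filter (-0.75, adjusted p = 0.0448). The Ikzf4 introns held 25 to 57 counts in each naive library. No strand setting is given for the counting, so reads of overlapping genes on the other strand cannot be told apart from those of these introns.

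Between genotypes the introns gave few calls. Over the stimulated states 1 of 7 members was called between TG and WT, Nrp1 (0.72, adjusted p = 7.07e-05, edgeR), where 11% of all genes were called, and 1 of 7 between KO and WT, again Nrp1 (0.72, adjusted p = 0.000376), against 3.68%. The exonic values for Nrp1 were 0.50 in TG and 0.68 in KO. Foxp3 introns differed by -0.06 between TG and WT (SE 0.253, adjusted p = 0.929), beside -1.18 in the exons, but they rest on few counts: 2 to 13 in each stimulated TG library, against 3 to 16 in each stimulated WT library. Between TG and WT naive cells 0 of 7 members were called in the introns, against 0.76% of all genes. At an unadjusted p under 0.05 edgeR listed 1 member there, Ikzf2 (1.03, adjusted p = 0.122), and DESeq2 was not run on the introns. Between 24 h and 48 h 3 of 7 members were called in TG cells (Ikzf2, Nrp1 and Gpr83), against 30.7%, 2 of 7 in KO cells (Nrp1 and Gpr83), against 30.9%, and 3 of 7 in WT cells (Ikzf2, Nrp1 and Gpr83), against 33.4%. In each case Nrp1 was higher and the others lower at 48 h. With the replicate block Ikzf4 was called in TG cells too (0.50, adjusted p = 0.0422, edgeR), and with no filter Gpr83 was not called in KO cells (-0.65, adjusted p = 0.0537).

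**Figure D4:**
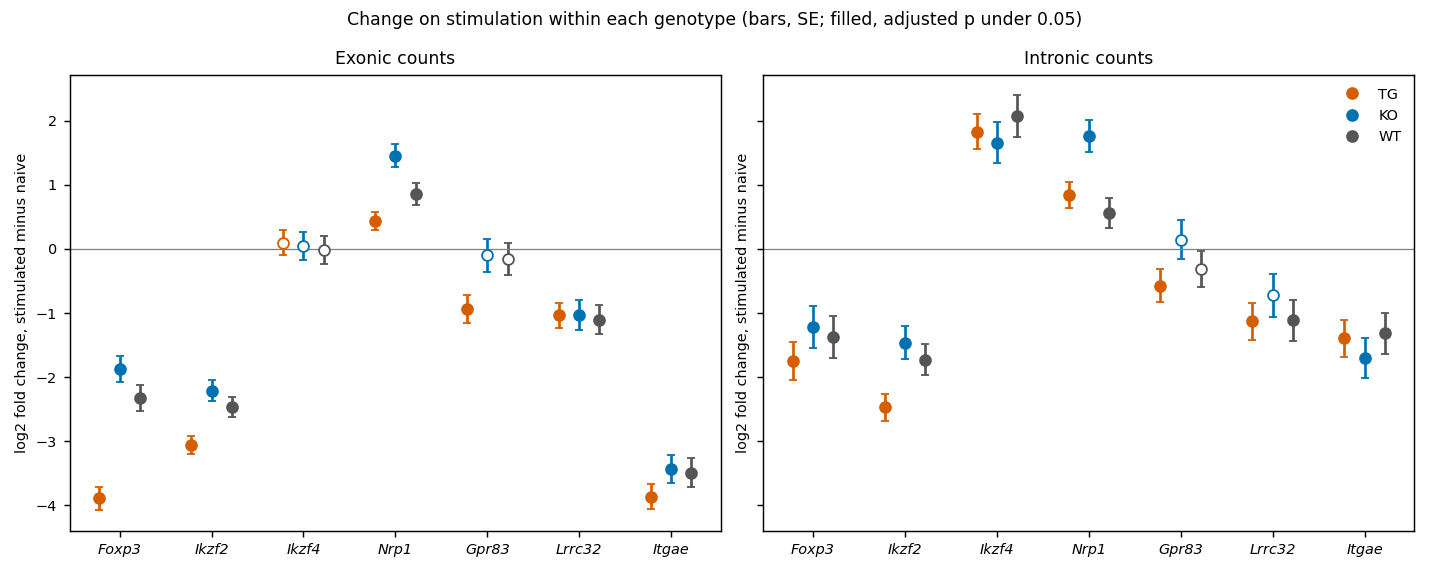
Log2 change from naive to stimulated cells in exonic (left) and intronic (right) counts for the 7 genes, with TG in orange, KO in blue, WT in grey, bars of 1 SE and filled points past an adjusted p of 0.05. Each panel is scaled to its own totals, and the intronic totals were lower in stimulated cells. Ikzf4 sits near 0 in the exons and between 1.66 and 2.08 in the introns, and Foxp3 in the exons is lowest in TG at -3.89.

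Genes that work with these members were read from lists made for this tissue. Of 22 receptor and effector genes of regulatory T cells, 3 were higher and 0 lower in TG than in WT naive cells, where 7.83% of all genes were called: Ccr8, a chemokine receptor (1.62, adjusted p = 0.000867, edgeR), Tigit (0.79) and Ctla4 (0.75), both inhibitory receptors. Their median was 0.33, beside 0.00 over all genes. Over the stimulated states 7 were higher and 4 lower in TG than in WT, against 33.8% of all genes called, with Ccr8 (1.49), Tigit (0.85), the cytokine gene Il10 (2.83) and the IL-2 receptor gene Il2ra (0.64) called with the smallest adjusted p and all higher. Il10 was near the floor in WT, with means of 5.11 CPM in stimulated TG and 0.521 CPM in stimulated WT cells. In KO 3 were higher and 4 lower, against 24.4% of all genes, led by Ccr8 (-0.80), the decoy receptor gene Il1r2 (1.09), Il2ra (-0.49) and Tnfrsf1b (0.25). The list medians were 0.07 in TG and -0.03 in KO. On stimulation of WT cells 13 rose and 5 fell, against 81.3% of all genes called, with Tnfrsf4 (4.48), Il2ra (4.77), Tnfrsf9 (3.79) and Tnfrsf18 (1.99), receptors of T cell activation, leading.

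Of 26 genes that regulate Foxp3, 9 were higher and 4 lower in stimulated TG than in WT cells (33.8% of all genes called), among them Gata3 (1.10), Satb1 (0.93), Stat5a (0.57) and Smad3 (0.53), all transcription factors or chromatin organisers. In KO 3 were higher and 8 lower (24.4% of all genes called), among them Smad3 (-0.64), Ets1 (-0.29), Stat5a (-0.35) and Nr4a3 (-0.45). The medians of the list were 0.01 in TG and -0.04 in KO. In naive cells the only call of the list was Lef1 (-0.49, adjusted p = 0.0224, edgeR), lower in TG. On stimulation of WT cells 6 rose and 17 fell (median -0.90), where 81.3% of all genes were called, with Tcf7 (-3.20), Foxo1 (-2.38), Ets1 (-2.39) and Irf4 (4.04) leading.

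Against WT, 7.83% of all genes were called in TG naive, 33.8% in stimulated TG and 24.4% in stimulated KO cells, and 81.3% were called on stimulation of WT cells. Of the other 3 Ikaros family genes, Ikzf3 was higher in stimulated TG (0.62) and lower in stimulated KO cells (-0.59) than in WT, and Ikzf1 was lower in TG (-0.32). All 3 fell on stimulation of WT cells: Ikzf3 by 1.66, Ikzf1 by 0.92 and Ikzf5 by 0.50. Of 11 partners and ligands of Nrp1, Lrrc32 and Itgae, Plxna1, which forms semaphorin receptors with neuropilin, was higher in TG naive cells (0.83, adjusted p = 0.00467, edgeR). Over the stimulated states 4 were higher and 1 lower in TG, with Itgb8, a chain of the integrin that releases TGF-beta from GARP, at -1.36 and Plxna1 at 0.29, and in KO 1 was higher, Itgb8 (0.67). Itgb8 was near the floor, with means of 0.299 CPM in stimulated TG, 1.38 CPM in KO and 0.792 CPM in WT cells. On stimulation of WT cells 3 of these 11 partners and ligands rose and 5 fell, led by the semaphorin gene Sema4a (-4.16) and by Itgb7, the partner of CD103 (-3.17). Of 7 TGF-beta receptor and Smad pathway genes 4 were higher and 1 lower in TG, and 1 was higher and 2 lower in KO: Tgfbr3 was 0.64 in TG and -0.76 in KO, Tgfbr1 0.41 and -0.24, and Tgfbr2 -0.27 and 0.60. All 7 fell on stimulation of WT cells (median -1.70), with Smad7 lowest at -4.64.

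The members did not vary as a block. Over the 15 group means the Pearson correlation was 0.93 between Ikzf2 and Itgae, 0.87 between Ikzf2 and Lrrc32, 0.76 between Foxp3 and Ikzf2 and -0.69 between Foxp3 and Nrp1. The points share libraries and the fall from naive to stimulated cells, so these are descriptions. After group means were removed, over 58 libraries, the values were 0.63 between Nrp1 and Gpr83, 0.51 between Ikzf4 and Lrrc32, 0.47 between Foxp3 and Gpr83 and 0.18 between Foxp3 and Ikzf2. These libraries share the replicate split described for Gpr83. Among all genes with a mean of at least 1 CPM, the patterns most like the members' over the 15 group means were those of Septin6 for Foxp3 (r = 0.98), Tnik for Ikzf2 (0.98), Pde4a for Ikzf4 (0.82), Casp4 for Nrp1 (0.95), Rbm22 for Gpr83 (0.95), Iffo2 for Lrrc32 (0.96) and Apobr for Itgae (0.99). Within groups, the 5 genes most like Foxp3 over the 58 libraries were Xpc (0.66), Rgl1 (0.61), Mxd4 (0.60), Myo6 (0.58) and Armc7 (0.58).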

How the data were processed

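Raw whole-number counts of exonic reads and of intronic reads per Entrez gene ID were deposited by the authors for 58 libraries. Per the submitters' processing notes FastQC 0.11.5, STAR 2.5.2a, R 3.5, edgeR 3.24.3 and the build mm10 were used. Which program counted the reads, on which annotation and with which strand rule, is not given in the sources used here. Reads of overlapping or antisense genes may therefore be shared.

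All 58 libraries entered 1 edgeR 4.0.16 quasi-likelihood fit (R 4.3.3, limma 3.58.1) with a coefficient for each group, TMM factors of 0.939 to 1.06 and 43 residual degrees of freedom. The filterByExpr filter kept 13709 of 24028 genes, and 12366 genes in a separate fit of the introns. Calls were made where the p-value, adjusted by Benjamini-Hochberg over all genes of a fit, was under 0.05. CPM used these factors, and log2 CPM a prior count of 2. The scripts were tested on simulated data. No pair of libraries had identical counts, and the lowest chi-square per degree of freedom between replicates was 7.18. Counts carry no molecular identifiers, so low counts limit precision at Foxp3 and Itgae in stimulated cells.

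Deviations of same-numbered libraries from their group means correlated at 0.13 to 0.62 between genotypes in the stimulated states and at 0.17 to 0.39 between TG and KO naive cells. The values were -0.02 to 0.33 between TG and WT naive cells and 0.08 to 0.39 between KO and WT naive cells. The numbers were read as pairing the stimulated libraries and TG with KO naive libraries. The main calls still came from the fit by group alone, without this pairing. Calls that the replicate block changed are given with the genes. Alternatives were DESeq2 1.42.0, RLE factors, no filter, a replicate block, counts summed over the stimulated states, and leaving out libraries. UTRs came from GENCODE vM21 transcripts, with a length ratio of 0.8 to 1.25 as like length.

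The members and gene lists were chosen with earlier results of these data known. The 7 members were always named, and up to 4 genes of each other list by the smallest adjusted p among those called in a comparison. Likeness was Pearson's r of log2 CPM among genes with a mean of at least 1 CPM, with the 3 genes most like each member over group means and the 5 most like Foxp3 within groups.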

Additional observations from a re-analysis of the deposited data

Results flagged for a closer look

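Gpr83 in TG cells after 24 h under the weak stimulus had 1 library apart from the other 3: replicate 4 held 23.8 CPM, and its gap to the next library was 0.903 of the range of the group, against a critical value of 0.829 for 4 libraries. Of 91 combinations of gene and group tested this was the 1 that passed, where chance gives about 1 in 20.

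The TG effect on Foxp3 differed between stimulated and naive cells, by -1.57 on the log2 scale (adjusted p = 0.00116 for the interaction, edgeR's quasi-likelihood test). TG libraries were below WT in 16 of 16 stimulated pairs. In naive cells TG against WT was 0.39 (adjusted p = 0.450, edgeR), and the libraries overlapped.

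The TG effect on Lrrc32 differed between 48 h and 24 h, by -0.996 on the log2 scale (adjusted p = 0.0444 for the interaction, edgeR's quasi-likelihood test). TG was above WT in 3 of 4 very weak and 4 of 4 weak pairs at 24 h, and in 1 of 4 and 0 of 4 pairs at 48 h.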

How the results depend on the processing

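RLE factors changed no call among the members. With the replicate number as a block, 2 members were called for KO against WT in each 48 h state (1 without it), 2 and 3 for TG against WT at 24 h under the very weak and the weak stimulus (1 each without it), and 4 for TG against KO in naive cells (2 without it). In the introns the block raised the calls over all genes too, from 455 to 895 for KO against WT over the stimulated states. How many exonic genes each setting called is not given here, except for DESeq2. Gains of members can therefore not be told apart from gains over all genes. For naive TG against WT, whose numbers were not read as pairing the libraries, the block gave 1 member called in the introns (Ikzf2, adjusted p = 0.0301, edgeR). It also gave 2 members whose TG effect changed with stimulation (Ikzf2 at -0.65, adjusted p = 0.0449) and 2 whose TG effect changed with time. DESeq2 called 2 members for KO under the weak stimulus at 48 h, 3 for TG under the weak stimulus at 24 h and 2 for the TG effect by time. Over all genes it called 867, 837 and 415 in these tests, where edgeR called 691, 660 and 253. Without the filter on low counts no member was called for the TG effect by time (0), and 1 was called in the KO introns between 48 h and 24 h. Counts summed over the stimulated states left 1 member called for KO against WT, and the libraries numbered 3 and 4 also left 1. Those numbered 1 and 2 left 0 for KO in each 48 h state. These splits by number were chosen after seeing the data.

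Leaving out 1 library or number gave 0 to 1 and 1 to 2 members for KO at 48 h under the very weak and the weak stimulus. For TG it gave 0 to 2 in naive cells, 0 to 2 and 1 to 2 under the weak stimulus at 24 h and 48 h, and 0 to 2 for the effect by time. Values near 0 changed sign. Against WT over the stimulated states, Foxp3 in KO was -0.054 among the libraries numbered 1 and 2 and -0.0079 to 0.15 on leaving out, and Gpr83 in KO was 0.15 among those numbered 3 and 4 and -0.28 to 0.0035 on leaving out. Gpr83 in TG against KO was 0.40 among those numbered 1 and 2, 0.070 summed, 0.12 summed with the block and -0.28 to 0.074 on leaving out. Nrp1 in TG at 48 h under the weak stimulus was -0.19 among those numbered 1 and 2 and -0.084 to 0.20 on leaving out, and Nrp1 in KO naive cells was -0.11 to 0.25. On stimulation Ikzf4 was -0.032 to 0.26 in TG, -0.021 to 0.24 in KO and -0.17 to 0.22 in WT cells, and 0.045 in WT cells without the filter, and Gpr83 was -0.20 to 0.058 in KO cells. The causes were not tested.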
